A study of Homo sapiens with 6 samples.

Results

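Transcripts were compared between LS180 cells that had received an siRNA against MYC and LS180 cells that had received a control siRNA, with 1 array for each. These are 2 of the 6 Affymetrix arrays of a study in which siRNAs were also used against CTNNB1, the beta-catenin gene, and against MYU, a long non-coding RNA whose listed symbol is VPS9D1-AS1. LS180 is an established human colorectal adenocarcinoma line that makes mucin. The pair consists of the array titled for MYC siRNA and the control array whose title names that siRNA, and the difference between them was taken for every probe set and averaged per gene symbol. Of 44629 probe sets, 15835 are listed with 1 gene symbol, and they gave 14812 genes. The sources used here do not give the siRNA's sequence, its dose or the time after transfection. All values come from a single line.

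MYC is a transcription factor that binds DNA as a dimer with MAX, most readily at the E-box letters CACGTG. It is known for raising the transcription of genes that build ribosomes, make nucleotides and drive the cell cycle, and for lowering others. In the intestine it is made in the dividing cells of the crypt, downstream of beta-catenin, and its level declines as cells differentiate.

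Values are differences, MYC siRNA minus control, on a scale taken as log2, so that 1 stands for a 2-fold higher and -1 for a 2-fold lower signal. The deposited values had been centred within the pair, which removed the expression levels. The value of MYC was 0.59 in the control array and -0.59 in the MYC siRNA array, and all other probe sets are mirrored in the same way, so 1 difference carries the whole measurement. With 1 array a side there is no replicate check, no p-value is given, and "higher" and "lower" describe these 2 arrays. In bulk RNA, fewer cells of a kind and less RNA per cell cannot be told apart. A list of 99 genes that belong to other tissues, mostly keratin-associated proteins, defensins, crystallins and protamines, served as a yardstick. Their differences had a standard deviation of 0.10, the largest was 0.33 in size, and 0 of 99 were 1.5-fold apart. Such genes are thought to be faint in colon cells, and the variation of strongly expressed genes may be wider.

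MYC itself differed by -1.18, a 2.27-fold lower signal in the MYC siRNA array, from 1 probe set. It ranked 28 of 14812 genes, counted from the lowest value. VPS9D1-AS1 differed by -0.24, within 1.5-fold, and no probe set is listed with CTNNB1. MYC's partner MAX stood at -0.05. The 10 measured genes of the MAX dimer network, which hold MAX, the MXD antagonists and the MLX group, all lay within 1.5-fold and ran from MXD1 (-0.51) to MXD4 (0.31). Among cofactors, TRRAP, a scaffold of histone acetyltransferases, had a value of -0.26 and WDR5, a chromatin adaptor, -0.38. ZBTB17, the zinc-finger partner through which MYC lowers genes, had a value of 0.12. Of the 19 network genes measured, MYC was the only one 1.5-fold apart.

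Of all genes, 61 (0.412%) were at least 2-fold higher and 66 (0.446%) at least 2-fold lower. At 1.5-fold the counts were 319 (2.15%) higher and 538 (3.63%) lower, and these shares are the background for every count of a gene list below. Protein-coding genes make up 11911 of all genes. Among 1048 microRNA loci and host genes, 0.763% were 1.5-fold lower and 0.573% higher. For lists of well expressed genes the background may therefore be larger than the shares over all genes. Over every probe set, named or not, 151 were 2-fold higher and 118 lower, so the balance between the directions turned. The median over all genes was 0.00 and their standard deviation 0.28. TPTEP1 (1.0011) and MRPL58 (-1.0014) lay just inside 2-fold, and TTC14 (0.9897) and TOMM6 (-0.9974) just outside. Lists follow textbook groups and overlap, but they were chosen with earlier results of these data known. Genes without a listed probe set were not measured. The plot of list medians sets side by side the lists with at least 10 measured genes, without those added after the values were seen. The lowest medians in it were those of replication licensing (-0.78), the replication fork (-0.72), the kinetochore (-0.55) and core MYC targets (-0.55). The highest were those of p53 targets (0.25) and lysosomal genes (0.18).

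Ribosome production was followed step by step, beginning with the polymerases that make its RNAs. Of the 6 measured genes of RNA polymerase I and its factors, all were below 0 and 3 were 1.5-fold lower. TCOF1, the treacle gene, had a value of -1.19, NOLC1, a nucleolar phosphoprotein gene, -0.95, and RRN3, the initiation factor of this polymerase, -0.82. The polymerase subunit genes POLR1F (-0.45) and POLR1H (-0.23) lay within 1.5-fold. Among 8 genes of RNA polymerase III, which makes 5S ribosomal RNA and transfer RNAs, the difference sat in 2. GTF3A, the factor for 5S RNA genes, had a value of -1.55 and POLR3G -1.48. POLR3GL, which encodes the alternative form of the POLR3G subunit, had a value of 0.07. The polymerase III repressor gene MAF1 stood at 0.02, and the remaining subunits POLR3B, POLR3C, POLR3E and CRCP lay between -0.39 and -0.11.

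Factors that fold, cut and assemble ribosomal RNA were lower in larger numbers. Of 44 measured genes on the list for the small subunit processome, 42 were below 0 and 15 were 1.5-fold lower, with a median of -0.37. The helicase gene DDX52 (-0.85) and PDCD11 (-0.80) were among the lowest, and RRP1B, which the list also holds, stood at -0.98. The kinase gene RIOK3 was the exception, 1.5-fold higher at 0.72, while RIOK1, of the same family, stood at -0.62. Of 47 large subunit assembly genes, 44 were below 0 and 16 were 1.5-fold lower, with a median of -0.50. The helicase gene DDX55 (-1.06) and the RNA methyltransferase gene NOP2 (-1.01) were 2-fold lower, and NIP7 stood at -0.88. A further 22 genes serve the small nucleolar ribonucleoproteins (snoRNPs), which guide RNA modification, and all 22 were below 0, with 9 at 1.5-fold. They were led by GAR1 (-1.04), a protein of the pseudouridine-guiding particles, and its assembly factor NAF1 (-0.95). FBL encodes fibrillarin, the methyltransferase of the other snoRNP class. Its values were 0.43 in the control and -0.43 in the MYC siRNA array, a difference of -0.86. The RNA exosome, which trims and degrades RNA, had all 10 of its measured EXOSC genes below 0. They ranged from EXOSC2 (-1.29), EXOSC8 (-0.96) and EXOSC5 (-0.76) to EXOSC1 (-0.06), and these 3 were the ones 1.5-fold lower.

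The FBL promoter is shown because fibrillarin belongs to this group and its window holds the E-box letters next to the start. The window runs from 250 bases before to 30 bases after the transcription start in RefSeq's GRCh38.p14 (chr19:39846350-39846629, minus strand), and capitals mark CACGTG, whose first base lies at position 7, counted from 1 at the start.
FBL promoter: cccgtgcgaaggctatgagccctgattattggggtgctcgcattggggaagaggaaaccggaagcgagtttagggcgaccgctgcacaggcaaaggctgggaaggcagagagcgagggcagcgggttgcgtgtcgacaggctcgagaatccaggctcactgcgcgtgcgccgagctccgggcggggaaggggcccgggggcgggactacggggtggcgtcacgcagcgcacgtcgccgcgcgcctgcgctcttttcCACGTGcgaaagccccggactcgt

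The ribosomal proteins themselves differed little. Of 51 cytosolic ribosomal protein genes, 34 were below 0, the median was -0.10, and 2 were 1.5-fold lower. Neither of these is a standard subunit gene, since RPL7L1 (-0.88) encodes an assembly factor related to RPL7 and RPL39L (-0.70) a variant copy of RPL39. Of the standard genes, RPL29 (-0.57) and RPL22 (-0.54) were the lowest and RPS19 (0.27) the highest. Many of these genes have near-identical copies elsewhere in the genome, so how their probe sets divide the signal is uncertain. Of 76 mitochondrial ribosomal protein genes, 61 were below 0 and 9 were 1.5-fold lower, with a median of -0.19. MRPL58, a peptide-releasing factor of that ribosome, stood at -1.0014, MRPL16 at -0.95 and MRPL11 at -0.83. Small nucleolar RNA host genes were mixed, with SNHG8 (-0.65) and SNHG17 (-0.59) 1.5-fold lower among 13 and SNHG16 at 0.34. The small nucleolar and Cajal body RNAs had a median of 0.16 over 21 genes, from SCARNA22 (-0.72) to SCARNA7 (0.84).

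**Figure D1:**
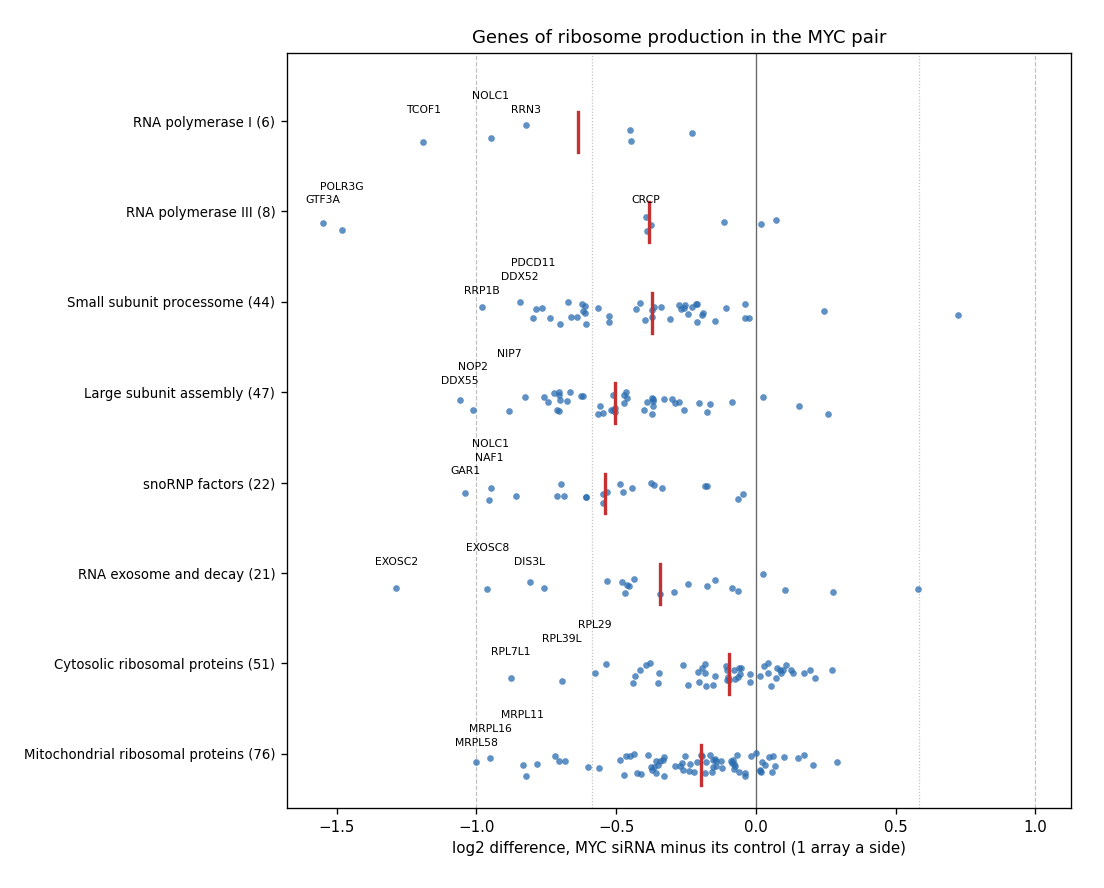
Each point is 1 gene at its log2 difference (x axis, MYC siRNA minus control); rows are steps of ribosome production with the number of genes in brackets, red bars mark medians, the 3 genes farthest from 0 are named and the vertical spread has no meaning. Assembly factors lie mostly left of 0 (medians -0.37 and -0.50), and cytosolic ribosomal proteins lie around it (median -0.10).

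Downstream of the ribosome, translation factors had a median of -0.07 over 38 genes, with 4 at 1.5-fold lower. EEF2K, the kinase that inhibits elongation, had a value of -0.87 and EIF5A2, a form of the hypusinated factor, -0.76. EIF4EBP1, the inhibitor of the cap-binding protein, stood at -0.60, and the cap-binding gene EIF4E at -0.06. Of 18 cytosolic transfer RNA synthetases, 16 were below 0, and those of leucine (LARS1, -0.81), isoleucine (IARS1, -0.69) and asparagine (NARS1, -0.62) were 1.5-fold lower. Among genes that modify transfer RNA, 5 of 45 were 1.5-fold lower, with FTSJ1, a methyltransferase gene, at -0.84 and METTL1, another, at -0.64. MTFMT, which formylates the initiator transfer RNA of mitochondria, was 2-fold lower at -1.09.

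RNA handling and traffic through the nuclear envelope followed the same direction in part. Of 63 nuclear pore and transport genes, 55 were below 0 and 17 were 1.5-fold lower, with a median of -0.35. TNPO3, an import receptor for splicing factors, was 2-fold lower at -1.17. KPNB1, the importin beta gene, stood at -0.94 and the exportin gene XPO7 at -0.92. Among pore subunits NUP88 (-0.95), NUP93 (-0.92) and NUP107 (-0.90) were the lowest. The splicing list had a median of -0.23, with 14 of 81 genes 1.5-fold lower. GEMIN5, which selects the RNAs that enter snRNP assembly, was the lowest of them (-1.19), and PTBP1, a repressor of exon inclusion, stood at -0.86. The core Sm protein genes SNRPD1 (-0.85), SNRPB (-0.65) and SNRPD3 (-0.64) were also 1.5-fold lower.

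Proteins of the inner nuclear membrane and lamina, a list added after the values were seen, had 7 of 19 genes 1.5-fold lower and a median of -0.30. LBR, a receptor for lamin B that also has sterol reductase activity, had a value of -1.51 and NEMP1, a membrane protein gene, -1.37. TMPO, the gene of the lamina-associated polypeptides, stood at -0.94, and LMNB1, the lamin B1 gene, at -0.67. Telomerase genes, also added afterwards, had 6 of 15 members 1.5-fold lower. TERC, the RNA component of telomerase, stood at -1.01, while TERT, the catalytic subunit gene, had a value of -0.27. The telomerase list shares GAR1 and NAF1, both 1.5-fold lower, with the snoRNP list, so these genes are counted in both.

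Nucleotide synthesis was lower at particular steps. PPAT, which catalyses the committed step of purine synthesis, had values of 0.51 in the control and -0.51 in the MYC siRNA array, a difference of -1.03. PRPS1, which makes its substrate, stood at -0.71, and PFAS, a later step, at -0.63. At the branch towards guanine nucleotides IMPDH2 had a value of -0.67 and GMPS -0.68, while IMPDH1, the other dehydrogenase form, stood at 0.04. In all, 5 of 18 purine genes were 1.5-fold lower and 0 were 1.5-fold higher. The salvage genes APRT (0.30) and HPRT1 (-0.24) lay within 1.5-fold.

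Of 19 genes of pyrimidine and deoxynucleotide synthesis, 6 were 1.5-fold lower. DHODH, the mitochondrial dehydrogenase of pyrimidine synthesis, was lower by 2-fold at -1.17. UMPS, which completes uridine monophosphate, had a value of -0.68 and the salvage kinase gene UCK2 -0.96. RRM2, the regulated subunit of ribonucleotide reductase, had a value of -0.83 and the thymidylate synthase gene TYMS -0.81. RRM2B, the form of that subunit listed among p53 targets, had a value of 0.27. In one-carbon metabolism, 5 of 21 genes were 1.5-fold lower. MTR, the methionine synthase gene, was 2-fold lower at -1.29. The serine synthesis genes PSAT1 (-0.93) and PSPH (-0.83) were 1.5-fold lower, and PHGDH, which opens that pathway, stood at -0.48. SHMT2, the mitochondrial serine hydroxymethyltransferase gene, differed by -0.08.

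Promoters of the genes for these purine and pyrimidine enzymes are printed because both hold the E-box letters upstream of the start. They lie at chr4:56435586-56435865, minus strand, for PPAT and at chr16:72008494-72008773, plus strand, for DHODH. Capitals mark CACGTG, whose first base lies at -182 in PPAT and -159 in DHODH relative to the start.
PPAT promoter: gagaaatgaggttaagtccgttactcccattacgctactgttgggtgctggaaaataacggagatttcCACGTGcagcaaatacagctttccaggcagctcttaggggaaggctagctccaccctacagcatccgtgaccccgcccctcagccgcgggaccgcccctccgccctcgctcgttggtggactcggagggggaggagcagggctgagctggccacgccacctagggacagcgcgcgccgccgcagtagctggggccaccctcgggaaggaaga
DHODH promoter: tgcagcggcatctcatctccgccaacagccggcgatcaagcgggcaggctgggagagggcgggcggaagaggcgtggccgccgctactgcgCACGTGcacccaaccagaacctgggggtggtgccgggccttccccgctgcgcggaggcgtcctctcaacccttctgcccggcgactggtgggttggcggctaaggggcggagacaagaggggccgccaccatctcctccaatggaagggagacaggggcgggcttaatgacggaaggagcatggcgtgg

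Other metabolic groups were also examined. In polyamine metabolism AGMAT, an agmatinase gene, had a value of -1.27 and SRM, the spermidine synthase gene, -0.65, while ODC1, the first enzyme of the pathway and a textbook MYC target, stood at -0.33. SAT2, also on the polyamine list, was its only member 1.5-fold higher, at 0.63. In glycolysis, 3 of 10 genes were 1.5-fold lower, the hexokinase gene HK2 (-0.76), the lactate dehydrogenase gene LDHA (-0.71) and PGAM1 (-0.68). GAPDH (-0.06), PGK1 (-0.12) and HK1 (0.20) lay close to 0. The lipid gene ELOVL6, which lengthens fatty acids, had a value of -1.18, ACLY, which supplies cytosolic acetyl-CoA, -0.90, and the sterol genes INSIG1 -0.71 and HMGCS1 -0.70. FASN, the fatty acid synthase gene, stood at -0.50. The list of cholesterol and fatty acid synthesis as a whole lay around 0, with a median of -0.01 and 21 of 41 genes below 0 and 20 above. In that list 3 genes were 1.5-fold lower and 0 higher, so not every lower lipid gene named here is on it. Of 27 subunit genes of oxidative phosphorylation 0 were 1.5-fold apart, and their median was 0.00. Genes for mitochondrial import and assembly were lower more often, 11 of 68 at 1.5-fold. They include the import pore genes TOMM40 (-0.68) and TIMM22 (-0.60), the mitochondrial RNA polymerase gene POLRMT (-0.88) and the helicase gene TWNK (-0.82).

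Replication genes lay lowest in the plot of list medians. All 24 measured genes of replication licensing and origin firing were below 0, with a median of -0.78, and 18 were 1.5-fold and 5 were 2-fold lower. MCM10, which activates the loaded helicase, had values of 0.84 in the control and -0.84 in the MYC siRNA array, a difference of -1.68 that only CYB5A exceeded. The 6 subunits of the MCM2 to MCM7 helicase ring lay close together, from MCM3 (-1.08) and MCM7 (-1.07) to MCM6 (-0.82). The helicase loader CDC6 stood at -1.11 and its partner CDT1 at -0.55. TICRR, an initiation factor of origin firing, had a value of -1.07. Of the GINS subunits, GINS2 (-0.94), GINS3 (-0.75) and GINS1 (-0.71) were 1.5-fold lower, whereas GINS4 stood at -0.19. MCM9, a relative of the ring subunits that acts in repair, had a value of -0.05.

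At the fork, all 18 measured genes were below 0, with a median of -0.72 and 13 at 1.5-fold. DTL, the adaptor of a ubiquitin ligase that clears CDT1, had values of 0.68 in the control and -0.68 in the MYC siRNA array, a difference of -1.35. UHRF1, which recruits the maintenance methyltransferase to new DNA, stood at -1.14 and DNMT1, that methyltransferase, at -0.85. The clamp gene PCNA had a value of -0.89. Among repair genes EXO1, an exonuclease of mismatch repair and recombination, was 2-fold lower at -1.23. In all, 12 of 34 recombination and Fanconi genes were 1.5-fold lower, XRCC2 at -0.87 and BRIP1 at -0.83 among them. Mismatch repair genes PMS1 (-0.84), PMS2 (-0.76) and MSH6 (-0.59) were also 1.5-fold lower.

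From this group the promoters are shown of the ring subunit MCM7, the loader CDC6 and the adaptor DTL. They were chosen because each holds letters that E2F factors prefer, TTTCCCGC or TTTGGCGC, and MCM7 holds the E-box letters too. The windows are chr7:100101368-100101647, minus strand, for MCM7, chr17:40287629-40287908, plus strand, for CDC6 and chr1:212035498-212035777, plus strand, for DTL. In MCM7 the first capitals are TTTCCCGC read on the opposite strand, at -187, and the next are CACGTG at -25. In CDC6 and DTL the capitals are TTTGGCGC, at 8 and -8.
MCM7 promoter: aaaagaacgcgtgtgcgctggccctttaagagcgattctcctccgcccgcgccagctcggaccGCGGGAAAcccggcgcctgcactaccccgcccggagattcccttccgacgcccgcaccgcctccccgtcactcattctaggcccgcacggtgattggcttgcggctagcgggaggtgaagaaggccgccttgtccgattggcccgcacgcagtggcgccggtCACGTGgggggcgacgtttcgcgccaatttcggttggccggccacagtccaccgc
CDC6 promoter: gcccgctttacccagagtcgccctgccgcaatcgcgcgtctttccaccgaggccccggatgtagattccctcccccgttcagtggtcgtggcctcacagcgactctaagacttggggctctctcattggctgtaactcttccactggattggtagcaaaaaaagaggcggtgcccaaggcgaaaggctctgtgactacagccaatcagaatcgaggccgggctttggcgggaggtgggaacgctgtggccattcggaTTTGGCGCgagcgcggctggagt
DTL promoter: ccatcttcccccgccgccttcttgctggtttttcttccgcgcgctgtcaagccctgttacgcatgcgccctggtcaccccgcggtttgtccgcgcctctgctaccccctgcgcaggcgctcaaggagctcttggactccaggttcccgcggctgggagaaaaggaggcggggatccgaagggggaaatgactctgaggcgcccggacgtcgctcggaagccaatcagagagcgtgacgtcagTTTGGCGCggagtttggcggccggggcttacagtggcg

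Regulators of the cell cycle came next. Of 17 genes of the E2F, pocket protein and DREAM group, 7 were 1.5-fold lower. The pocket protein gene RBL1 had a value of -1.24, while its relatives RBL2 (-0.09) and RB1 (0.08) lay near 0. MYBL2, which with the MuvB proteins switches on mitotic genes, stood at -1.02. All 5 measured E2F genes were below 0, from E2F7, a repressor, at -0.97 to E2F3 at -0.24, with the activator E2F1 at -0.75. FOXM1, an activator of mitotic genes, had a value of -0.62. Of 44 cyclin, kinase and inhibitor genes, 10 were 1.5-fold lower and 2 were higher, and the median was -0.16. CDC25A, the phosphatase that activates CDK2, was 2-fold lower at -1.13, and CCNF, an F-box cyclin, at -1.03. CCNA2 had a value of -0.99 and the G1 kinase gene CDK6 -0.91. CCND1 (-0.59) and CDK4 (-0.63) also passed 1.5-fold, and CCNE1 stood at -0.52. CCNC (0.69) and CDK19 (0.68), which encode a cyclin and a kinase of the Mediator module, were the 2 members 1.5-fold higher, while CDK8, a close relative of CDK19, stood at -0.27.

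Mitotic genes were divided between structures. The kinetochore list had a median of -0.55, with 17 of 36 genes 1.5-fold lower. CENPN (-1.07) and CENPU (-1.02), of the centromere-associated network, and SKA3 (-1.01), which couples kinetochores to microtubules, were 2-fold lower. The checkpoint genes MAD2L1 (-0.92) and BUB1 (-0.77) were 1.5-fold lower. The spindle list had a median of -0.19, with 20 of 89 genes 1.5-fold lower. KNSTRN, a kinetochore and spindle protein gene, had a value of -1.24, the kinase gene PBK -1.14 and AURKB, the Aurora B kinase gene, -0.95. Of 42 kinesin motor genes 6 were 1.5-fold lower, and all 6 are mitotic motors. They are KIF20A (-0.91), KIF2C (-0.82), KIF14 (-0.75), KIF15 (-0.71), KIF11 (-0.66) and KIF4A (-0.59). The transport motors KIF5B (0.00) and KIF3A (0.30) were within 1.5-fold, and KIF13B, a motor of membrane cargo, was higher at 0.79. Cohesin and condensin genes had a median of -0.32, and ESCO2, the cohesin acetyltransferase gene, was the only one of 17 at 1.5-fold (-0.63).

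**Figure D2:**
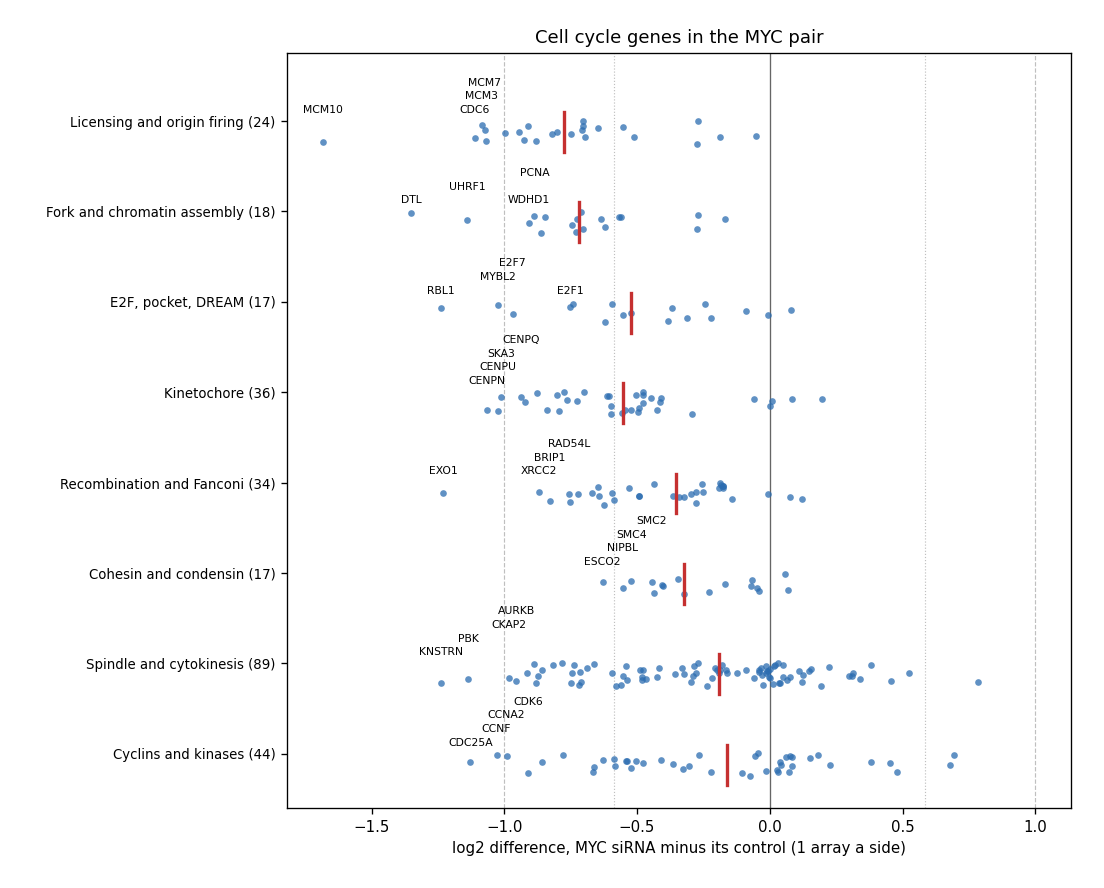
Each point is 1 cell cycle gene at its log2 difference (x axis, MYC siRNA minus control); rows are lists with the number of genes in brackets, red bars mark medians, the 4 genes farthest from 0 are named and the vertical spread has no meaning. All licensing and fork genes lie left of 0 (medians -0.78 and -0.72), and the spindle (-0.19) and cyclin (-0.16) lists spread to both sides.

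The higher side held genes of other kinds. Of 64 lysosome and autophagy genes, 49 were above 0, 9 were 1.5-fold higher and 0 were 1.5-fold lower, with a median of 0.18. NEU1, the lysosomal sialidase, had values of -0.77 in the control and 0.77 in the MYC siRNA array, a difference of 1.53. PSAP, the precursor of the saposins that assist lipid hydrolases, stood at 1.06. The hydrolase genes GALC (0.82), GALNS (0.77), HEXA (0.76), TPP1 (0.76) and ASAH1 (0.75) and the protease gene CTSD (0.73) formed a close group. Of the transcription factors that switch on lysosomal genes, TFEB had a value of 0.06, TFE3 0.26 and MITF -0.04. The autophagy genes proper stayed nearer to 0, with ATG5 at 0.22, ATG7 at -0.09 and ULK1 at 0.16. HGSNAT, a lysosomal acetyltransferase of heparan sulfate breakdown that is on none of the lists, was also 2-fold higher at 1.06.

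Several of these enzymes act on sphingolipids, and a list of that pathway was added after the values were seen. Of 18 breakdown genes, 6 were 1.5-fold higher and 0 lower, with a median of 0.28. ACER2, a ceramidase of the Golgi apparatus, stood at 1.26, beside NEU1, PSAP, GALC, HEXA and ASAH1. On the synthetic side KDSR, which makes dihydrosphingosine, was 2-fold lower at -1.01, and the others of its 13 genes lay within 1.5-fold. A list of vesicle fusion and endolysosomal sorting genes, also added afterwards, had 8 of 77 genes 1.5-fold higher and 2 lower. Its higher members were led by the SNARE genes VAMP8 (1.08) and STX19 (1.04) and the small GTPase gene ARL14 (1.06). Its lower members were ERGIC2 (-1.41), of the compartment between the endoplasmic reticulum and the Golgi apparatus, and BLOC1S6 (-1.33), a subunit of a complex for lysosome-related organelles.

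The NEU1 promoter is printed because it carries the E-box letters and the gene was higher in the MYC siRNA array. Its window is chr6:31862792-31863071, minus strand, and capitals mark CACGTG at -126.
NEU1 promoter: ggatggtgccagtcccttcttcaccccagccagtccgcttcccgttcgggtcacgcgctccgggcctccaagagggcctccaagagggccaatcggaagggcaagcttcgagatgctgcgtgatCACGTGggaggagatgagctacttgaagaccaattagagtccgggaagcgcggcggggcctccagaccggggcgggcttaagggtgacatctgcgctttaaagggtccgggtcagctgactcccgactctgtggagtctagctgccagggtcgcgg

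Genes of the differentiated intestinal epithelium were higher in part. Of 42 enterocyte and colonocyte genes, 7 were 1.5-fold and 4 were 2-fold higher, 0 were 1.5-fold lower, and the median was 0.03. CEACAM7, an adhesion molecule of the colonocyte surface, had values of -1.498 in the control and 1.498 in the MYC siRNA array. That difference of 2.995, or 7.97-fold, was the highest of all 14812 genes. The other 10 measured CEACAM genes lay between CEACAM16 (-0.18) and CEACAM6 (0.48). CDHR5, a cadherin that links microvilli, stood at 1.45, MYO7B, a myosin of the same tip links, at 0.87, and their partner CDHR2 at 0.03. GUCY2C, the receptor for guanylin, was higher at 1.20, while its ligand genes GUCA2A (-0.10) and GUCA2B (0.13) lay near 0. The keratin gene KRT20, a marker of mature colonocytes, stood at 1.16. The carbonic anhydrase genes CA1 (-0.03), CA2 (-0.21) and CA4 (-0.03), the water channel gene AQP8 (-0.04) and the brush border peptidase gene ANPEP (0.04), which are also used as markers of this cell, lay near 0.

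Secretory genes gave 3 of 27 at 1.5-fold higher. SLPI, a secreted inhibitor of serine proteases, had a value of 1.98, the trefoil peptide gene TFF3 0.82 and the mucin-like gene MUCL3 0.77. TFF1 (0.31) and TFF2 (0.11) lay within 1.5-fold, as did the secretory transcription factor genes ATOH1 (-0.10) and SPDEF (-0.07). GALNT5, which starts mucin-type glycosylation, stood at 1.40 and the fucosyltransferase gene FUT2 at 0.63. Of 29 transcription factor genes of intestinal identity, 0 were 1.5-fold apart, with CDX2 at -0.29, CDX1 at -0.40 and ASCL2, a factor of crypt stem cells, lowest at -0.54. Of 26 enteroendocrine genes 1 was 1.5-fold apart, the neuropeptide gene GAL at -1.57.

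Surface and matrix genes added to the higher side. Of 35 TM4SF and tetraspanin genes, which encode membrane proteins with 4 spans, 7 were 1.5-fold higher and 0 lower, with a median of 0.13. TM4SF4 had a value of 1.68, TSPAN8 1.14, TM4SF5 0.99 and TSPAN1 0.91. Of 58 integrin and matrix genes, 7 were 1.5-fold higher and 0 lower, with a median of 0.03. THBS1, the matrix glycoprotein thrombospondin, stood at 1.66, the basement membrane proteoglycan genes HSPG2 at 1.02 and AGRN at 0.85. Of the 4 inhibitors of metalloproteases, TIMP2 (0.89), TIMP1 (0.83) and TIMP4 (0.71) were 1.5-fold higher, and TIMP3 had a value of 0.06. Among junction genes PATJ, a polarity scaffold, stood at 1.10 and the tight junction gene CLDN1 at 1.09, while the desmosomal cadherin gene DSG2 was lower at -0.62. KRT80 (1.34) and PPL (0.84), a keratin and a cytolinker of cornified envelopes, were also higher.

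**Figure D3:**
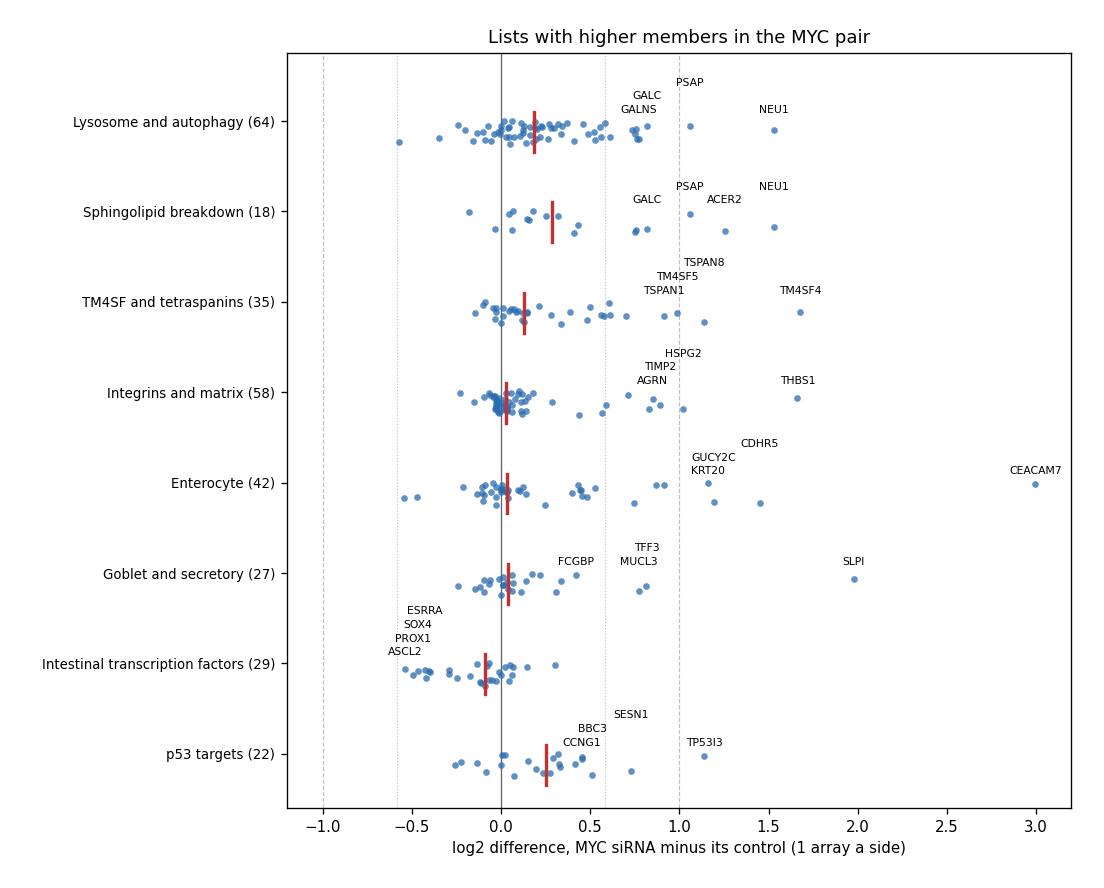
Each point is 1 gene at its log2 difference (x axis, MYC siRNA minus control); rows are lists with the number of genes in brackets, red bars mark medians, the 4 genes farthest from 0 are named and the vertical spread has no meaning. NEU1 (1.53), TM4SF4 (1.68), THBS1 (1.66) and CEACAM7 (2.995) lie far to the right of their lists. The medians are 0.25 or below except for sphingolipid breakdown (0.28). That list was added after the values were seen and shares members with the lysosomal list, so its median is not comparable with the others.

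Signalling genes were few. Of 45 crypt stem cell and Wnt target genes, 6 were 1.5-fold lower and 3 higher. The stem and progenitor genes CDCA7 (-1.32), ALCAM (-0.82) and CD44 (-0.62) were lower, as was ZNRF3, which removes Wnt receptors (-0.76), and the hyaluronidase gene CEMIP (-1.01). The secreted Wnt antagonist gene DKK1 had a value of 1.74 and GREM1, a secreted BMP antagonist gene, 1.11. NRARP, a feedback inhibitor gene of Notch signalling, was 2-fold lower at -1.03. Of 98 chemokine, cytokine and receptor genes, IL18 (1.27) and CXCL16 (0.70) were 1.5-fold higher and CCL20 (-1.02) and the receptor gene IL17RB (-0.96) lower. Each direction held 2.04% of that list, no more than the 2.15% higher and 3.63% lower over all genes. Interferon-stimulated genes had a median of 0.09 over 43 genes, and SAMD9 (0.97) and GBP3 (0.94) were 1.5-fold higher. Among p53 targets 18 of 22 were above 0, with a median of 0.25, and TP53I3 (1.14), an oxidoreductase gene, and SESN1 (0.73), a sestrin gene, were 1.5-fold higher. The death gene BAX stood at -0.26 and BBC3, another, at 0.51. DDIT4, an inhibitor of the mTOR kinase complex, was 2-fold lower at -1.42, and the ATF4-responsive genes TRIB3 (-0.53) and ASNS (-0.49) lay within 1.5-fold. Of 13 genes listed as repressed by MYC, THBS1 and CLU (0.61) were 1.5-fold higher and 6 were below 0.

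Some 2-fold differences stood alone in their family. CYB5A, which encodes cytochrome b5, had the lowest value of all genes, -1.95, with 0.98 in the control and -0.98 in the MYC siRNA array. CYB5B, the mitochondrial outer membrane form, stood at 0.52. Of 38 kallikrein and protease inhibitor genes, KLK7, a serine protease gene, was lower at -1.46 and SLPI was the member 1.5-fold higher. Each direction held 2.63% of that list, near the 2.15% higher and 3.63% lower over all genes. Of 60 TRIM ligase genes, TRIM31 had a value of 1.81, the mean of 5 probe sets that ran from 1.75 to 1.86. TRIM38 (0.97) and TRIM52 (0.75) were 1.5-fold higher too, and TRIM28, a corepressor of transposable elements, lower at -0.60. The nuclear factor I family, a list added after the values were seen, went as a whole. NFIC (-1.44), NFIA (-0.98), NFIB (-0.84) and NFIX (-0.73), its 4 genes, were all 1.5-fold lower. Among the wider zinc-finger and nuclear factor group of 536 genes, ZNF367 (-1.46) was the other member 2-fold lower. At 1.5-fold, 15 (2.80%) were higher, against 2.15% of all genes, and 10 (1.87%) lower, against 3.63%. The higher ones were led by ZNF836 (0.92) and ZNF773 (0.83).

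Regulators of chromatin and of protein fate held scattered differences. Of 133 chromatin and DNA methylation genes, 7 were 1.5-fold lower and 0 higher, with UHRF1, KDM1B and DNMT1 as the lowest and the lysine methyltransferase genes SETD7 (-0.82) and SETD3 (-0.75) next. Of 56 ubiquitin-specific protease genes, 6 were 1.5-fold lower and 0 higher. USP12, a histone deubiquitinase gene, had a value of -0.99 and USP1, which acts on PCNA and the Fanconi proteins, -0.76. Of 31 chaperone genes, HSPA4L (-0.82), an HSP110 family gene, and the prefoldin gene PFDN2 (-0.78) were 1.5-fold lower. Among redox genes GSTK1 (0.80) and GSTT1 (0.72), both glutathione transferases, were higher and TXNRD1, the thioredoxin reductase gene, lower at -0.63. Of 12 metallothionein list genes, MT1F (0.89) was the only one 1.5-fold apart, and the other members include MT1E (-0.55) and MT2A (-0.18). These metal-binding proteins are encoded by near-identical genes, so their values are uncertain.

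The remaining genes at least 2-fold higher belong to varied groups. They include ERP27 (1.66), a chaperone of the endoplasmic reticulum, and the nucleotide salvage enzyme gene CDA (1.40). MYOF (1.30), of the ferlin membrane repair proteins, and HEPH (1.24), the gene of an intestinal ferroxidase, follow. RAMP1 (1.15), a receptor accessory protein gene, and PCTP (1.15), a phosphatidylcholine carrier gene, were alike in size. ANXA3 (1.02) and S100A10 (1.01), a partner of annexin A2, bind membranes, RHOB (1.03) is a small GTPase gene, and UBA7 (1.03) activates the ubiquitin-like protein ISG15. ENPP5 (1.42), TMC4 (1.40), TTC13 (1.36), CALU (1.17), PLBD1 (1.17), LRRC19 (1.16), EPB41L1 (1.16) and TMEM59 (1.16) were between 1.16 and 1.42. PAM (1.07), ABHD2 (1.06), GPX8 (1.05), LRP10 (1.04), LMBRD1 (1.03), DST (1.03) and SUSD1 (1.0018) followed between 1.0018 and 1.07.

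On the lower side, STYX (-1.54) encodes a pseudophosphatase and KDM1B (-1.13) a histone demethylase. FERMT1 (-1.11) encodes an epithelial kindlin, OSBPL8 (-1.13) a lipid carrier at membrane contacts, and EMC4 (-1.15) a subunit of the membrane protein insertase of the endoplasmic reticulum. Further 2-fold lower genes were ARMC1 (-1.25), R3HDM1 (-1.22), TMEM52 (-1.18), ENTR1 (-1.13), RELL1 (-1.10), ANKRD22 (-1.08), NETO2 (-1.08), ASB4 (-1.06) and LRRCC1 (-1.04).

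Letters were counted in promoters, from 250 bases before to 50 after the start, on both strands, for the 10736 of 14812 genes that the promoter table holds. CACGTG was found in 9.03% of these promoters. Among genes 1.5-fold lower the share was 15.4% (69 of 449, 95% Wilson interval 12.3 to 19.0), against 8.72% of genes within 1.5-fold and 10% of genes 1.5-fold higher. Among genes 2-fold lower it was 12.7% (7 of 55, 6.30 to 24.0), an interval that includes the share of all promoters. The E2F letters, TTTCCCGC or TTTGGCGC, stood in 3.07% of all promoters. They were found in 21.8% of the promoters of genes 2-fold lower (12 of 55, 12.9 to 34.4) and in 2.27% of those 2-fold higher (1 of 44, 0.402 to 11.8). At 1.5-fold the share was 9.35% among lower genes (42 of 449, 6.99 to 12.4) and 2.40% among higher genes (6 of 250). CACGCG and TTTGAA were counted too. CACGCG stood in 24.7% of promoters of genes 1.5-fold lower (111 of 449), 15.9% of all and 11.6% of those 1.5-fold higher. For TTTGAA these shares were 14.9%, 11.8% and 9.60%, and it stood in 42.9% of kinetochore promoters (12 of 28) and 39.5% of spindle promoters (30 of 76). Median GC content was 65.3% in promoters of genes 1.5-fold lower and 63.3% in all, and shares were not adjusted for it. The intervals cover counting error only.

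The letters were spread unevenly over the lists. CACGTG stood in 41.7% of promoters of the small subunit processome (15 of 36) and in 34.1% of those of large subunit assembly (14 of 41). Cytosolic ribosomal protein genes had it in 6.52% (3 of 46). In replication licensing genes it was found in 15.8% (3 of 19), whereas the E2F letters were found in 47.4% (9 of 19). Values with and without the letters were then compared within lists. Over the ribosome assembly lists together, the median was -0.52 for the 34 genes with CACGTG and -0.46 for the 59 without it, and over the replication lists -0.89 for the 13 genes with E2F letters and -0.70 for the 22 without. In lysosome and autophagy genes, 25.0% of promoters (12 of 48) held CACGTG, and the median difference was 0.54 for these 12 and 0.14 for the 36 without it. Genes of the list of core MYC targets had the letters in 50% of promoters (18 of 36), and E-boxes are part of how such targets are recognised. A match describes the letters only and is not evidence of binding.

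**Figure D4:**
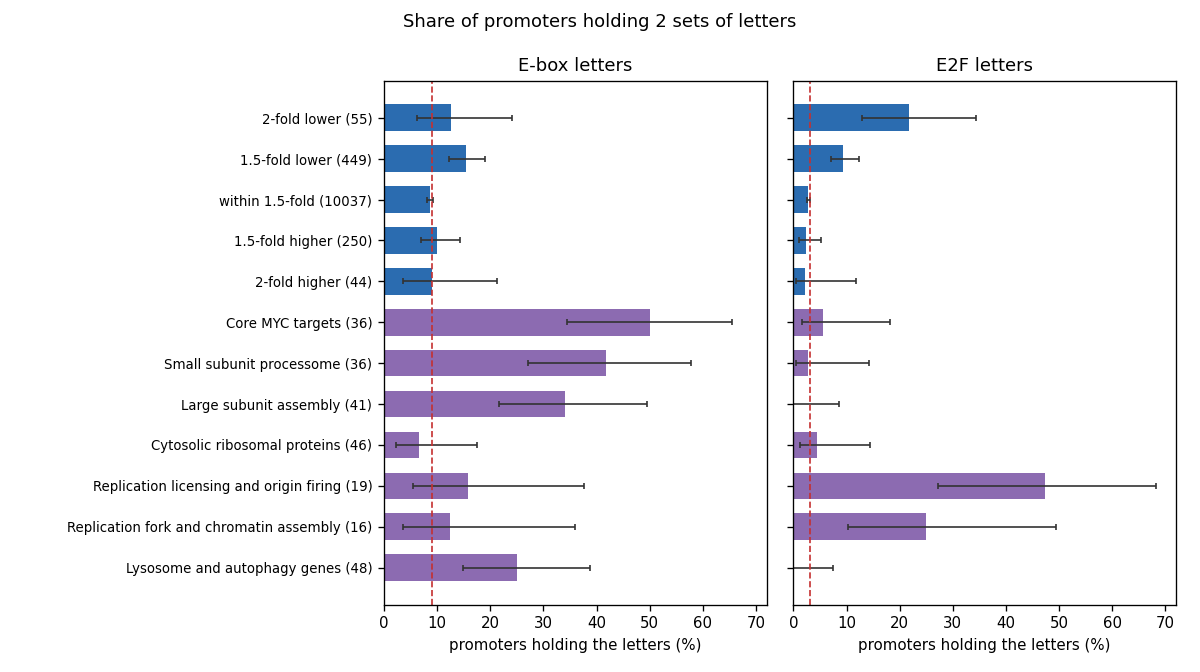
Share of promoters (x axis, %) that hold the E-box letters (left) or the E2F letters (right); bars are groups of genes by their difference (blue) or lists (purple) with the number of promoters in brackets, whiskers are 95% Wilson intervals and the dashed line is the share of all promoters. E-box letters stand highest in core MYC targets (50%) and E2F letters in replication licensing genes (47.4%).

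The study's other pairs are set beside this one only as values, because the controls of the MYC and CTNNB1 pairs bear 1 and the same number in their titles, and it is not known whether they are 1 array. The treatment tag of the CTNNB1 array names CTNNB2, whereas its title gives CTNNB1, so its values are those of the array titled for CTNNB1. MYC had a value of -2.38 in the CTNNB1 pair and 0.04 in the MYU pair. In the MYC, CTNNB1 and MYU pairs, in that order, the medians of replication licensing were -0.78, -1.56 and -0.33. Those of the replication fork were -0.72, -1.69 and -0.36, those of p53 targets 0.25, -0.14 and 0.27. Large subunit assembly had medians of -0.50, -1.16 and 0.05. Both replication medians thus lay below 0 in all 3 pairs, and that of p53 targets lay above 0 in the MYU pair too. NFIC had values of -1.44, -1.11 and 0.05 in the MYC, CTNNB1 and MYU pairs. DDIT4 stood at -1.42 in the MYC pair and 0.65 in the CTNNB1 pair. ELOVL6 had a value of -1.18 in the MYC pair and 0.00 in the CTNNB1 pair, and CCL20 -1.02 and 0.21. CYB5A had values of -1.95 and -0.73 in the same order, GAL -1.57 and -0.83, and TRIM31 1.81 and 1.14. Whether these differences between pairs exceed the spread between arrays was not tested.

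Identity of the cells was checked last. Of 8 measured markers of a colorectal epithelial line, KRT20 was 2-fold higher at 1.16 and the other 7 lay within 1.5-fold. These were EPCAM (0.09), KRT8 (-0.16), KRT18 (0.10), KRT19 (0.45), VIL1 (0.40), CDX1 (-0.40) and CDX2 (-0.29). Markers of other cells were 4 for fibroblasts, 7 for leukocytes, 7 for endothelium and 7 for hepatocytes, neurons and muscle, and in each of these lists 0 were 1.5-fold apart. The largest difference was that of CD68, a lysosomal protein of macrophages, at 0.48. Since levels were removed by the centring, which markers were absent cannot be read from these values. Of 6 measured housekeeping genes 0 were 1.5-fold apart, 5 were below 0 and the median was -0.18. They ran from PPIA (-0.51) to B2M (0.56). That median was close to those of the splicing (-0.23), mitochondrial ribosomal protein (-0.19) and spindle (-0.19) lists. Small negative medians were thus not limited to the lists named as lower.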

How the data were processed

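Total RNA prepared with TRIsure was labelled with biotin and hybridised by the Affymetrix procedure, per the labels. The deposited values are on a log scale, taken as log2 by assumption, and were centred by the authors within the MYC pair. The centring was read from the values: those of each probe set add up to 0, to 1e-06. The number of arrays limits the precision. Background correction, normalization between arrays, probe summarisation and log base: not given in the sources used here.

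Differences of the MYC siRNA and control values were taken per probe set and averaged per gene symbol of the platform annotation. Of 44629 probe sets, 28794 have no listed gene and are unnamed here. The 15835 identifiers of the rest all have an entry in RefSeq's gene table (GRCh38.p14). Of 14812 genes, 651 have several probe sets, with a median standard deviation between them of 0.08. Counts use 2-fold and 1.5-fold, 0.585 on the log2 scale. No test was run.

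The comparison, the 75 gene lists and the rule for named genes were chosen with earlier results of these data known, and 6 further lists after the values were seen. The rule names the targeted transcripts, characterised genes at least 2-fold apart, list members at least 1.5-fold apart or otherwise up to 4, every member of lists of at most 12, and textbook genes. A part of the genes it allows is printed. Promoter sequences come from RefSeq. The alternatives are given in the closing section. Only the gene means and the counts at 2-fold and 1.5-fold were tested on simulated data. The simulated differences lay clear of both thresholds, so that test could hardly fail. List medians and promoter counts were not tested in this way. The software was Python 3.11.15 with pandas 2.3.3, numpy 2.4.6, matplotlib 3.10.9 and scipy 1.17.1.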

Additional observations from a re-analysis of the deposited data

Results flagged for a closer look

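Probe sets with no listed gene lie outside the counts of genes above, and 131 of them were at least 2-fold apart in the MYC pair, 83 higher and 48 lower in the MYC siRNA array. Their values ran from -2.08 to 2.88. They are unnamed here, and no replicate stands behind them.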

How the results depend on the processing

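At 1.5-fold in place of 2-fold, 319 genes were higher and 538 lower, against 61 and 66. Counting every probe set, named or not, gave 151 higher and 118 lower, so the balance turned. The share of promoters with E2F letters was 9.35% among genes 1.5-fold lower, against 21.8% at 2-fold. With the probe set nearest to 0, the one farthest from 0, protein-coding genes only, or arrays centred on the median, the counts stayed between 56 and 64 higher and between 65 and 70 lower. Under the nearest probe set and under centring on the median, all 79 list medians moved by less than the standard deviation of the yardstick genes. Neither setting could move them far. The median over all probe sets was already 0.00 in this pair, and only 651 of 14812 genes have several probe sets. With the nearest probe set 2 small medians changed sign, proteasome subunits (0.03 to -0.06, 3 genes) and sphingolipid synthesis (0.01 to -0.02). With centring 0 did. Of the genes 2-fold apart only TRIM31 has several probe sets, so the other values rest on 1 probe set each.

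A filter on low values and the mean of all control arrays were not run, since the centring removed the levels. The background of genes marked by a coarser rounding step was not run, because 99.2% of the values shared 1 step. No paired analysis was possible because the pair has 1 array a side and gives no test.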
